A study of Mus musculus with 9 samples.

Results

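The genes described here are the 3 mouse TGF-beta ligands (Tgfb1, Tgfb2, Tgfb3), the 3 TGF-beta receptors (Tgfbr1, Tgfbr2, Tgfbr3) and 4 Smads (Smad2, Smad3, Smad4, Smad7). They were taken by gene name, and all 10 names were found among the 15184 genes of the table. RNA-Seq of polyA+ RNA was performed on mouse embryonic fibroblasts (MEFs), which are primary cells grown from embryos, and 9 libraries were sequenced. The 3 Empty libraries came from wild-type MEFs that carried empty vector. The 3 SAM1 and 3 SAM2 libraries are labelled with the genotype Hnrnpk_SAM, in which a synergistic activation mediator (SAM), built on a Cas9 that does not cut, is guided to the Hnrnpk gene to raise its transcription. The SAM components were delivered by lentivirus, and the cells were selected with blasticidin and hygromycin. The study used 2 guides, but the labels do not say which of them SAM1 or SAM2 carried, nor whether libraries of one name came from separate cultures. The p-values therefore measure the spread between libraries, which may be technical.

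TGF-beta ligands are secreted in a latent form and, once released, bind the type II receptor TGFBR2, which phosphorylates the type I receptor TGFBR1. TGFBR1 then phosphorylates SMAD2 and SMAD3, which join SMAD4 and regulate genes in the nucleus, while SMAD7 inhibits the receptors. In fibroblasts the pathway is known for its control of extracellular matrix, contractile genes and growth arrest.

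The values are normalized counts, that is, reads per gene divided by the size factor of the library, and genes were compared on log2(normalized count + 1) with limma, with Benjamini-Hochberg adjustment over all 15184 genes. A gene was called when its adjusted p was below 0.05. Reads on the listed genes numbered 41759636 to 49026626 per library. Hnrnpk, the targeted gene, was measured at 25058, 26098 and 26164 in Empty, at 24102, 24045 and 23619 in SAM1 and at 26608, 26859 and 26221 in SAM2. On the deposited scale it was lower in SAM1 than in Empty (log2 fold change of -0.11, adjusted p = 0.00252 with limma) and not called in SAM2 (0.044, adjusted p = 0.159). This direction depended on the scaling, since quantile normalization gave 0.094 in SAM1 (adjusted p = 0.00502 with limma) and 0.22 in SAM2 (adjusted p = 4.59e-06), and the library total gave 0.035 (adjusted p = 0.266) and 0.15 (adjusted p = 0.000335). The RNA of the targeted gene therefore did not check the labels, other measures of HNRNPK by the study were not analysed here, and every direction below refers to the libraries as they are labelled. All 10 fibroblast markers were in the table, with 3 called higher and 7 lower in SAM1 and 3 higher and 4 lower in SAM2. Their sum was 651780 to 699040 in Empty, 577582 to 580968 in SAM1 and 713547 to 734101 in SAM2. Pdgfra (-0.60 in SAM1 and -0.81 in SAM2), Thy1 (-0.67 and -0.29) and Dcn (-2.12 and -2.22) were lower in both on the log2 scale. Pdgfrb (0.94 and 0.54) was higher in both. Vim (0.55) and S100a4 (1.30) were higher in SAM1, while in SAM2 Vim was lower (-0.077) and S100a4 was not called (0.013). Summed endothelial markers (4 of 6 in the table) were 301 to 357 in Empty, 4613 to 4988 in SAM1 and 638 to 689 in SAM2. Kdr made up nearly all of the SAM1 sum (4490 to 4877), while the defining markers Pecam1 (25.4 to 32.6) and Cdh5 (61.5 to 69.3) were low. Pecam1 was called higher in SAM1, from a mean of 12.9 in Empty to 29.5 (1.14, adjusted p = 0.000907 with limma). Cdh5 (-0.26) and Tek (-0.30) were not called in SAM1. In SAM2, Kdr (1.35) and Tek (0.89) were called higher, Cdh5 was called lower (-0.63) and Pecam1 was not called (-0.10). Summed epithelial markers (3 of 8 in the table) were 388 to 429 in Empty, 3733 to 3884 in SAM1 and 243 to 275 in SAM2. Cldn4 gave 3621 to 3771 of the SAM1 sum. Summed neural and glial markers (3 of 6 in the table) were 2176 to 2345 in Empty, 8988 to 9160 in SAM1 and 8273 to 8460 in SAM2. Nes gave most of these sums, with 1877 to 2009 in Empty, 8061 to 8223 in SAM1 and 7670 to 7833 in SAM2. The part of these markers in the results below was not tested. In bulk libraries, fewer cells of a type and less RNA per cell cannot be told apart.

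The sequences that follow show promoter stretches of a ligand that fell and a receptor that rose in both SAM groups. They come from RefSeq (GRCm38.p6), in windows of 250 bases before to 50 bases after the RefSeq start. The entries reported are those of Tgfb1, Tgfb2, Tgfbr1 and Smad3. The motifs searched on both strands were GTCTAGAC and CAGAC (Smad binding), TGANTCA (AP-1), TGACGTCA (CRE), GGAATG (TEAD) and GGGCGG (Sp1 and KLF). GTCTAGAC overlaps no full CAGAC. Capitals mark the CAGAC matches of Tgfb2 (chr1:186706185-186706214, minus strand) and the GGGCGG matches of Tgfbr1 (chr4:47353077-47353106 and chr4:47353115-47353144, plus strand).
Tgfb2: cacaCAGACccttggtgatcaCAGACagtg
Tgfbr1, first: ccagggccccgcGGGCGGggctctcggcta
Tgfbr1, second: tagggcgctcgcGGGCGGcgggggaggcgg

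The Tgfb2 matches began 221 and 204 bases before the start. The Tgfbr1 matches began 133 and 95 bases before the start. A further Tgfbr1 entry, with another start, held CAGAC 203 bases before it and lacked the Sp1 and KLF motif. The latter also matched 6 times in the window of Tgfb1, which rose in both SAM groups, and 2 times in that of Smad3, and CAGAC was in neither window. Of all 32534 promoters of this length, 49.5% held CAGAC and 35.9% held GGGCGG, so these matches are common letters. GTCTAGAC (0.215% of promoters), TGANTCA (7.79%), TGACGTCA (1.8%) and GGAATG (14.6%) had no match in the windows of these 4 genes. The starts are those of RefSeq, and GENCODE transcripts begin up to 108 bases further upstream for Tgfb2 and 88 for Tgfbr1.

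Of the 10 genes, Tgfbr2 changed most in SAM1 and in SAM2. It fell in both SAM groups, Tgfbr3 fell in both and Tgfbr1 rose in both. Tgfbr2, the type II receptor that binds the ligand, lies on chromosome 9 (GRCm39, 115913361 to 116004800, minus strand). It was measured at 56147, 51727 and 54451 in Empty, at 8401, 7815 and 8490 in SAM1 and at 14932, 14545 and 15203 in SAM2. The groups did not overlap, with Empty highest and SAM1 lowest. The mean of SAM1 was 6.57-fold lower than that of Empty (log2 fold change -2.72 ± 0.038 SE, adjusted p = 5.16e-15 with limma) and the mean of SAM2 was 3.63-fold lower (-1.86 ± 0.038, adjusted p = 2.49e-13 with limma). SAM2 exceeded SAM1 by 0.86 on the log2 scale (95% confidence interval 0.77 to 0.94, adjusted p = 8.11e-10 with limma). The 20 listed genes nearest to Tgfbr2 had median log2 fold changes of -0.19 in SAM1 and -0.26 in SAM2, and those of all 846 listed genes of chromosome 9 were -0.16 and -0.12.

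Tgfbr1, the type I receptor kinase, lies on chromosome 4 (GRCm39, 47353134 to 47414931, plus strand). Its normalized counts were 1698, 1483 and 1675 in Empty, 2910, 2607 and 2837 in SAM1 and 2253, 2264 and 2310 in SAM2. All SAM1 and SAM2 libraries lay above all Empty libraries, and SAM1 lay above SAM2. Tgfbr1 had a log2 fold change of 0.78 ± 0.053 in SAM1 (adjusted p = 1.78e-08 with limma) and 0.49 ± 0.053 in SAM2 (adjusted p = 2.22e-06 with limma). SAM2 was lower than SAM1 by a log2 difference of -0.29 (95% confidence interval -0.41 to -0.17, adjusted p = 0.000417 with limma).

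Tgfbr3, betaglycan, presents ligands to the type II receptor and lies on chromosome 5 (GRCm39, 107249402 to 107437623, minus strand). It was measured at 5699, 5467 and 5572 in Empty, at 2965, 2825 and 3041 in SAM1 and at 4234, 4266 and 4227 in SAM2. The 3 groups did not overlap, and SAM2 lay between the others. Tgfbr3 had a log2 fold change of -0.92 ± 0.033 in SAM1 (adjusted p = 2.53e-11 with limma) and -0.39 ± 0.033 in SAM2 (adjusted p = 1.68e-07 with limma), and SAM2 exceeded SAM1 by 0.53 (95% confidence interval 0.46 to 0.60, adjusted p = 1.93e-08 with limma).

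**Figure D1:**
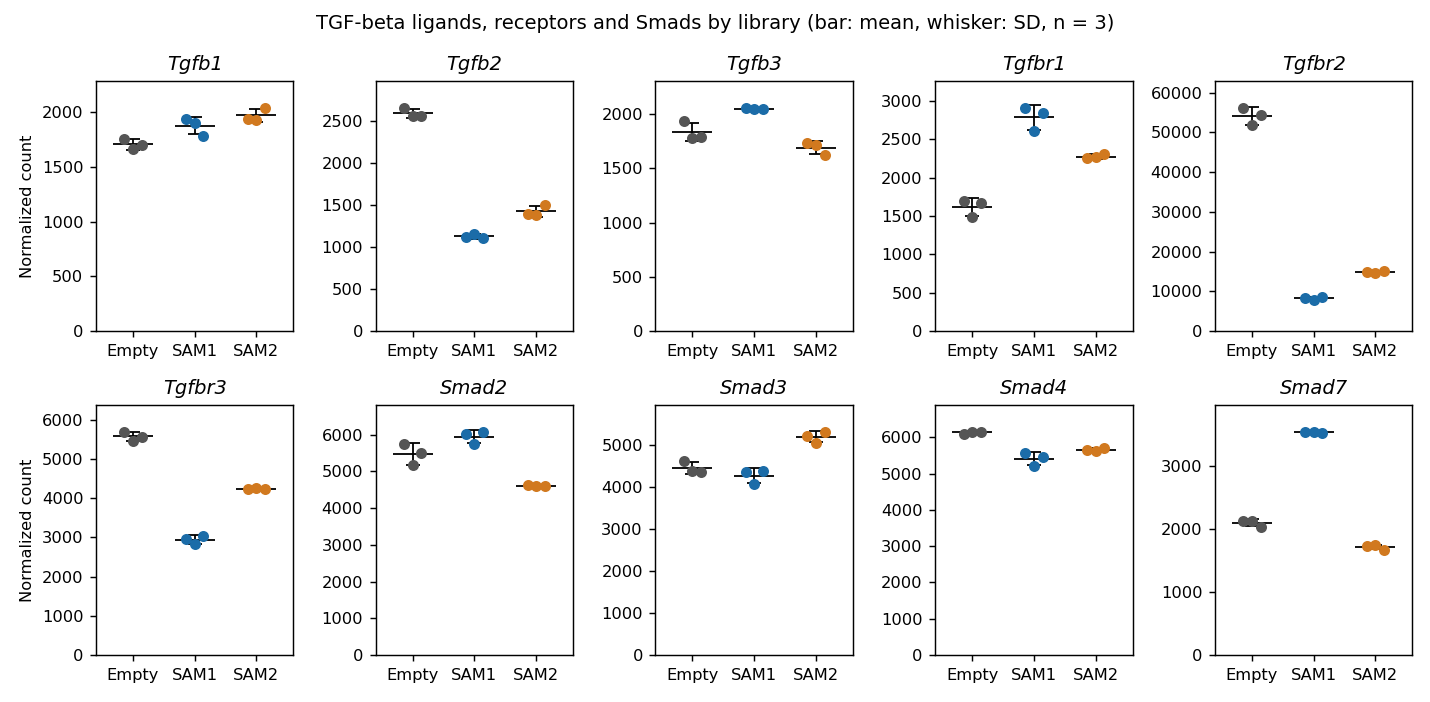
Normalized counts (y axis, from 0) of the 10 genes in each Empty, SAM1 and SAM2 library (points), with the mean as a bar and the SD as a whisker (n = 3). Tgfbr2 sits between 51727 and 56147 in Empty and between 7815 and 15203 in the other 6 libraries, and Smad7 lies above Empty in SAM1 and below it in SAM2.

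Levels were compared between genes per kilobase of merged exons (GENCODE vM39), as a description with no test. Merged exons cover all annotated transcripts of a gene, so rankings and ratios between genes depend on this choice of length. In Empty, Tgfbr2 had 6154 ± 254 normalized counts per kilobase (SD, n = 3) and Tgfbr1 had 244 ± 17.8. In SAM1 the levels were 937 ± 41.7 for Tgfbr2 and 421 ± 23.9 for Tgfbr1, and in SAM2 they were 1694 ± 37.6 and 344 ± 4.59. Tgfbr2 stayed the higher of the pair in every library. The ratio of Tgfbr2 to Tgfbr1 per kilobase was 25.2 ± 0.934 in Empty, 2.23 ± 0.0472 in SAM1 and 4.93 ± 0.0804 in SAM2.

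Of the ligands, Tgfb2 fell and Tgfb1 rose in both SAM groups, whereas Tgfb3 rose in SAM1 and fell in SAM2. Tgfb2 lies on chromosome 1 (GRCm39, 186354985 to 186438294, minus strand) and was measured at 2654, 2562 and 2558 in Empty, at 1119, 1153 and 1105 in SAM1 and at 1393, 1378 and 1498 in SAM2. The groups did not overlap, with Empty highest and SAM1 lowest. Tgfb2 had a log2 fold change of -1.20 ± 0.041 in SAM1 (adjusted p = 1.52e-11 with limma) and -0.87 ± 0.041 in SAM2 (adjusted p = 5.96e-10 with limma). SAM2 exceeded SAM1 by 0.34 (95% confidence interval 0.25 to 0.43, adjusted p = 1.12e-05 with limma).

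Tgfb1, the ligand most used in culture, lies on chromosome 7 (GRCm39, 25386390 to 25404506, plus strand). Its normalized counts were 1760, 1661 and 1703 in Empty, 1940, 1905 and 1788 in SAM1 and 1941, 1931 and 2041 in SAM2. Both SAM groups lay above Empty, and they overlapped each other. The rise in Tgfb1 was a log2 fold change of 0.14 ± 0.041 in SAM1 (adjusted p = 0.00931 with limma) and 0.21 ± 0.041 in SAM2 (adjusted p = 0.000565 with limma). The difference between SAM2 and SAM1 was not called (0.071, 95% confidence interval -0.019 to 0.16, adjusted p = 0.158 with limma).

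Tgfb3 lies on chromosome 12 (GRCm39, 86102756 to 86126301, minus strand) and was measured at 1933, 1783 and 1793 in Empty, at 2058, 2043 and 2043 in SAM1 and at 1737, 1717 and 1620 in SAM2. SAM1 lay above and SAM2 below Empty with no overlap. Tgfb3 had a log2 fold change of 0.16 ± 0.041 in SAM1 (adjusted p = 0.00345 with limma) and -0.12 ± 0.041 in SAM2 (adjusted p = 0.0201 with limma), and SAM2 was lower than SAM1 by a log2 difference of -0.28 (95% confidence interval -0.37 to -0.19, adjusted p = 6.95e-05 with limma). The SAM2 call ended when Empty replicate 1 (-0.081, adjusted p = 0.0864 with limma) or SAM2 replicate 3 (-0.088, adjusted p = 0.102 with limma) was left out.

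Per kilobase, the 3 ligand genes summed to 1102 ± 33.9 in Empty, 942 ± 19.1 in SAM1 and 940 ± 11.3 in SAM2 (SD, n = 3). Tgfb2 was the largest of the 3 in Empty, with 37.6% ± 0.407 of the sum, and had 19.1% ± 0.339 in SAM1 and 24.2% ± 0.836 in SAM2. The share of Tgfb1 was 30.5% ± 0.278 in Empty, 39.2% ± 0.882 in SAM1 and 41.3% ± 0.803 in SAM2. The share of Tgfb3 was 31.9% ± 0.484, 41.7% ± 0.765 and 34.5% ± 1.64. On this scale Tgfb3 had the largest share in SAM1 and Tgfb1 in SAM2, as a description with no test. The merged exons were 5083 bases for Tgfb1, 6258 for Tgfb2 and 5213 for Tgfb3. The lengths of the transcripts in these cells were not measured, and other lengths could change which ligand ranks first in each group.

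**Figure D2:**
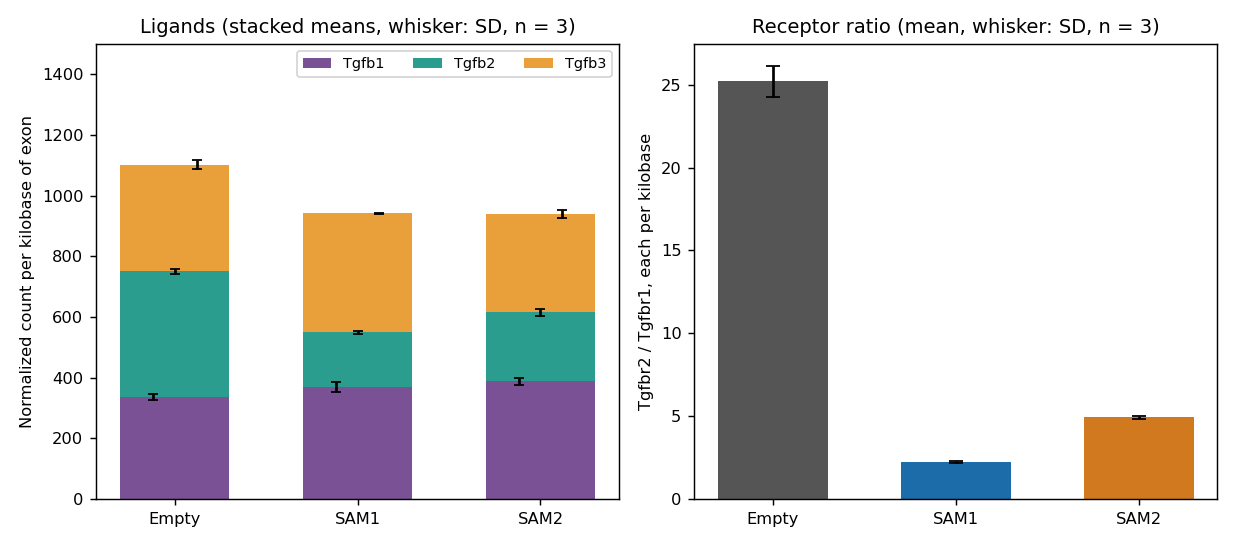
Left, stacked mean levels of the ligand genes in normalized counts per kilobase of exon, with the SD of each gene as a whisker at the top of its segment. Right, mean ratio of Tgfbr2 to Tgfbr1 per kilobase with its SD (n = 3 in each group), which is 25.2 in Empty, 2.23 in SAM1 and 4.93 in SAM2.

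Of the Smads, Smad4 fell in both SAM groups, and Smad7 and Smad2 rose in SAM1 and fell in SAM2. Smad7, the inhibitory Smad of the pathway and itself a known target of it, lies on chromosome 18 (GRCm39, 75500374 to 75529006, plus strand). It was measured at 2134, 2137 and 2042 in Empty, at 3555, 3548 and 3529 in SAM1 and at 1727, 1744 and 1674 in SAM2. SAM1 lay above Empty and SAM2 below it, with no overlap. Smad7 had a log2 fold change of 0.75 ± 0.033 in SAM1 (adjusted p = 1.84e-10 with limma) and -0.29 ± 0.033 in SAM2 (adjusted p = 2.93e-06 with limma). SAM2 was lower than SAM1 by a log2 difference of -1.05 (95% confidence interval -1.12 to -0.98, adjusted p = 3.01e-11 with limma), the largest difference between the SAM groups among the 10 genes.

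Smad2, a receptor-activated Smad, lies on chromosome 18 (GRCm39, 76374327 to 76445180, plus strand). Its normalized counts were 5755, 5162 and 5491 in Empty, 6024, 5741 and 6087 in SAM1 and 4623, 4603 and 4609 in SAM2. SAM1 overlapped Empty, whereas SAM2 lay below both. The log2 fold change was 0.12 ± 0.039 in SAM1 (adjusted p = 0.0114 with limma) and -0.24 ± 0.039 in SAM2 (adjusted p = 7.68e-05 with limma), and the difference of SAM2 from SAM1 was -0.37 (95% confidence interval -0.45 to -0.28, adjusted p = 3.19e-06 with limma).

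Smad3, the other receptor-activated Smad of the pathway, lies on chromosome 9 (GRCm39, 63554049 to 63665476, minus strand). It was measured at 4631, 4385 and 4352 in Empty, at 4361, 4066 and 4387 in SAM1 and at 5221, 5065 and 5328 in SAM2. SAM2 lay above both other groups, which overlapped. The log2 fold change was 0.22 ± 0.038 in SAM2 (adjusted p = 0.000139 with limma), SAM1 was not called (-0.061, 95% confidence interval -0.14 to 0.021, adjusted p = 0.159 with limma), and SAM2 exceeded SAM1 by 0.29 (95% confidence interval 0.20 to 0.37, adjusted p = 2.62e-05 with limma).

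Smad4, the shared partner of the receptor-activated Smads, lies on chromosome 18 (GRCm39, 73769343 to 73836915, minus strand). It was measured at 6090, 6162 and 6154 in Empty, at 5576, 5217 and 5457 in SAM1 and at 5651, 5620 and 5717 in SAM2. Empty lay above all 6 other libraries, and SAM1 lay below SAM2. The log2 fold change was -0.18 ± 0.030 in SAM1 (adjusted p = 0.000105 with limma) and -0.12 ± 0.030 in SAM2 (adjusted p = 0.00358 with limma). The difference between SAM2 and SAM1 was not called (0.065, 95% confidence interval -7.2e-05 to 0.13, adjusted p = 0.0781 with limma), but it was called without SAM1 replicate 1 (0.086, adjusted p = 0.0430). Both calls against Empty ended when values were scaled to the library total (-0.038 in SAM1, adjusted p = 0.240, and -0.012 in SAM2, adjusted p = 0.721, with limma), as did the Tgfb3 call in SAM2 (-0.015, adjusted p = 0.759 with limma).

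**Figure D3:**
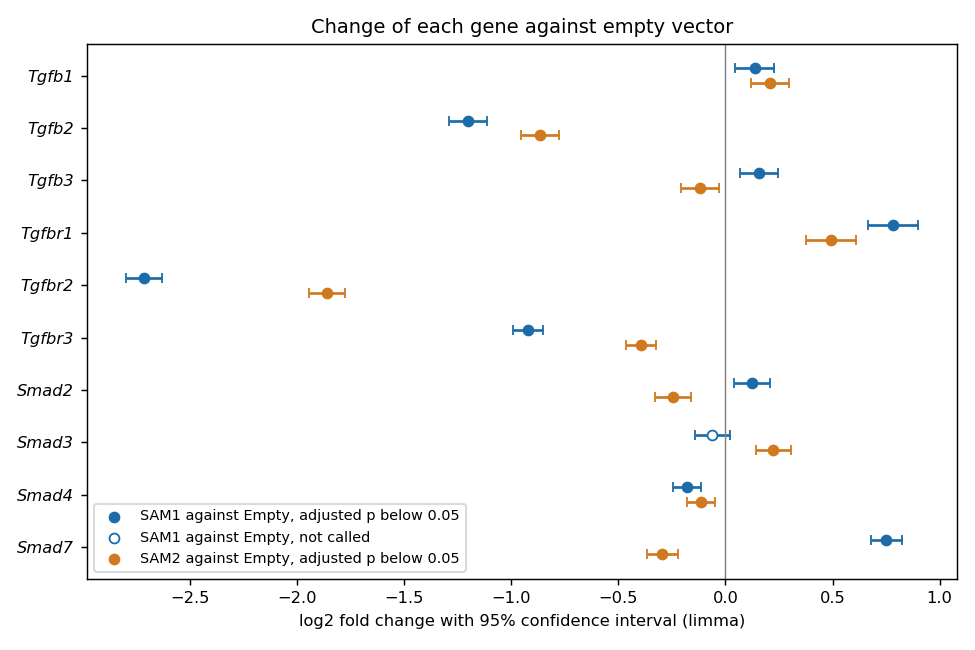
Log2 fold change against Empty (x axis) of each gene in SAM1 and SAM2, with the 95% confidence interval from limma as a whisker and an open point where the adjusted p was not below 0.05. Tgfbr2 is farthest from 0 at -2.72 and -1.86, and Smad7, Smad2 and Tgfb3 have points on opposite sides of 0.

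In SAM1 against Empty, 5 of the 10 genes were called higher, where 37.3% of all genes were, and 4 were called lower, where 36.9% were. In SAM2 against Empty, 3 were called higher (35.2% of all genes) and 7 lower (35.3% of all genes). Between SAM2 and SAM1, 4 were called higher in SAM2 (31.1% of all genes) and 4 lower (29.2% of all genes). Over the 10 genes the median change was 0.031 in SAM1 and -0.18 in SAM2 on the log2 scale, against 0.0093 and -0.0015 over all genes. Both comparisons with Empty use the same 3 Empty libraries.

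With the 6 SAM libraries as one Hnrnpk_SAM group against Empty, 2 of the 10 genes were called higher (26.8% of all genes) and 4 lower (27.0% of all genes). The called genes were Tgfbr1 (0.64, adjusted p = 0.000441) and Tgfb1 (0.17, adjusted p = 0.011), which rose, and Tgfbr2 (-2.29, adjusted p = 4.5e-05), Tgfb2 (-1.03, adjusted p = 2.85e-05), Tgfbr3 (-0.66, adjusted p = 0.00513) and Smad4 (-0.15, adjusted p = 0.00721), which were lower (limma, log2 scale). Smad7 had a log2 fold change of 0.23 and was not called (adjusted p = 0.544), and neither were Tgfb3 (0.020, adjusted p = 0.863), Smad2 (-0.061, adjusted p = 0.668) and Smad3 (0.081, adjusted p = 0.471, limma). The Tgfb1 call ended without Empty replicate 2 (0.15, adjusted p = 0.0508), and the Smad4 call ended under quantile normalization (-0.067, adjusted p = 0.0877) and the library total (-0.025, adjusted p = 0.523, limma). For Smad7, Tgfb3 and Smad2 the pooled value averages SAM1 and SAM2 changes of opposite sign.

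Scaling to the library total, an alternative chosen after seeing the data, moved the median log2 fold change of all genes to 0.15 in SAM1, 0.10 in SAM2 and 0.13 in the pooled group. The calls over all genes then stood at 7232 higher and 4101 lower in SAM1, against 5667 and 5608, and at 6555 higher and 4131 lower in SAM2, against 5340 and 5359. In the pooled group they stood at 5344 higher and 2838 lower, against 4076 and 4103, and between SAM2 and SAM1 at 4090 and 5079, against 4722 and 4440. Relative to that median, Tgfbr2 stood at -2.72 in SAM1 and -1.86 in SAM2, Smad7 at 0.74 and -0.29, and Smad4 at -0.19 and -0.11 on the log2 scale. Such a scaling shifts all genes of a library alike, so values relative to the median were bound to stay nearly the same. The Tgfbr2, Tgfbr3, Tgfb2, Tgfbr1, Tgfb1 and Smad7 directions and calls in SAM1 and SAM2 held under this scaling, and the Smad3 value in SAM1 turned from -0.061 to 0.081 without a call (adjusted p = 0.0542 with limma).

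The gene most like Tgfbr2 across the 9 libraries by Pearson correlation of log2 values was Adamts5 (r = 0.9998), with means of 17402 in Empty, 2521 in SAM1 and 4557 in SAM2. Fstl1, Fam171a2, Cxcl12 and Rb1cc1 followed, with r of at least 0.999. These libraries fall into 3 groups, and 222 genes had r above 0.99, so the likeness describes the order and spacing of the 3 group means.

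Other genes of the pathway were read from lists. The counts of each list stand beside the shares of all genes called, which were 37.3% higher and 36.9% lower in SAM1 and 35.2% higher and 35.3% lower in SAM2. Of 21 genes of latency and extracellular handling, all in the table, 7 rose and 9 fell in SAM1, and 7 rose and 8 fell in SAM2. As shares, 33.3% rose and 42.9% fell in SAM1, and 33.3% rose and 38.1% fell in SAM2, near those of all genes. Dcn, decorin, a matrix proteoglycan that binds TGF-beta, fell from a mean of 11815 in Empty to 2713 in SAM1 and 2538 in SAM2 (log2 fold changes -2.12 and -2.22). Bgn, the related biglycan, fell by 0.75 and 0.55. Ltbp1, which anchors latent TGF-beta to the matrix, rose by 0.85 and 0.72, and Itgb3, an integrin subunit able to bind latent TGF-beta, rose by 2.29 and 1.72 from a mean of 449 in Empty. The other integrin beta subunits of the list, named after their values were seen, did not share this pattern. Means in Empty, SAM1 and SAM2 were 111510, 92013 and 102714 for Itgb1 and 14503, 9825 and 11947 for Itgb5. They were 5.73, 37.9 and 5.09 for Itgb6 and 279, 279 and 166 for Itgb8.

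Of 8 genes listed as other ligands that act through SMAD2 and SMAD3, or as genes that oppose such ligands, 6 were in the table. The list mixes both kinds, so its counts give no direction for signalling. In SAM1, 4 rose and 1 fell, and in SAM2, 5 rose and 1 fell (all genes, 37.3% and 36.9% in SAM1 and 35.2% and 35.3% in SAM2). Fst, follistatin, which binds activins, was measured at 95.1, 97.7 and 78.3 in Empty, at 436, 448 and 464 in SAM1 and at 106, 112 and 116 in SAM2. SAM1 stood far above the other groups, with log2 fold changes of 2.31 in SAM1 and 0.30 in SAM2. The SAM2 call ended under quantile normalization (0.20, adjusted p = 0.0638 with limma) and with DESeq2 (0.30, adjusted p = 0.0524). Fstl3, a follistatin-like activin trap, rose by 0.71 and 0.79, and Inha, the inhibin alpha subunit, rose by 0.50 and 0.54, with the SAM1 call lost under quantile normalization (0.16, adjusted p = 0.298 with limma). Gdf11, a ligand of the activin branch, rose by 0.27 in SAM2 and was not called in SAM1 (0.060, adjusted p = 0.179 with limma).

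Among the co-receptors and related receptors, 10 of 11 were in the table. In SAM1 6 rose and 3 fell, and in SAM2 6 rose and 2 fell (all genes, 37.3% and 36.9% in SAM1 and 35.2% and 35.3% in SAM2). Acvrl1, a type I receptor that signals to SMAD1 and SMAD5, rose from a mean of 265 in Empty to 1122 in SAM1 and 888 in SAM2 (2.08 and 1.74 on the log2 scale). Nrp1, a co-receptor, rose by 1.14 and 1.22, and Acvr1b, the activin type I receptor, rose by 0.69 and 0.63. Acvr2b, an activin type II receptor, fell by 1.28 in SAM1 and 0.84 in SAM2, from a low level of 116 to 134 in Empty. All these changes were called by limma in both SAM groups. Nrp2 of the same list, named after its values were seen, went the other way from Nrp1. Its mean was 13872 in Empty, 6805 in SAM1 and 3757 in SAM2, against 1184, 2607 and 2756 for Nrp1.

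All 4 other Smads were in the table, with 3 higher and 1 lower in SAM1 and 2 higher and 1 lower in SAM2 (all genes, 37.3% and 36.9% in SAM1 and 35.2% and 35.3% in SAM2). Smad9, a Smad of the BMP branch, was measured at 155, 138 and 126 in Empty, at 1049, 913 and 958 in SAM1 and at 394, 425 and 421 in SAM2. Its groups did not overlap, and the log2 fold changes were 2.79 and 1.56. Smad6, the inhibitory Smad of the BMP branch, rose by 1.10 and 0.76. Smad1 rose by 0.17 in SAM1 and fell by 0.077 in SAM2, but the SAM2 value turned to 0.027 with no call when scaled to the library total (adjusted p = 0.394 with limma). Smad5 fell by 0.20 in SAM1, which was not called under that scaling (-0.053, adjusted p = 0.202 with limma). In SAM2 it was not called (0.058, adjusted p = 0.198) until that scaling was used (0.16, adjusted p = 0.00138 with limma).

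Of 14 negative regulators, 4 rose and 5 fell in SAM1 (9 and 5 under the library total) and 3 rose and 7 fell in SAM2 (5 and 6). The shares of all genes were 37.3% and 36.9% in SAM1 and 35.2% and 35.3% in SAM2, against 28.6% higher and 35.7% lower of this list in SAM1. These shares are from the main scaling. Under the library total, 7232 of all 15184 genes were higher and 4101 lower in SAM1, and 6555 higher and 4131 lower in SAM2. Smurf2, a ubiquitin ligase that acts with SMAD7 on the receptors, fell from a mean of 13195 in Empty to 6662 and 6607 (log2 fold changes -0.986 and -0.997, with SAM2 and SAM1 not called different, adjusted p = 0.835 with limma). Smurf1, its relative, fell by 0.42 and 0.32. Pmepa1, a membrane protein that limits Smad activation, fell by 0.44 and 0.62, and Nedd4l, a ubiquitin ligase for Smads, rose by 0.59 and 0.40. Of 10 positive cofactors, 9 were in the table, with 2 higher and 4 lower in SAM1 (5 and 1 under the library total) and 3 higher and 2 lower in SAM2 (5 and 2). Their shares were 22.2% higher and 44.4% lower in SAM1 and 33.3% higher and 22.2% lower in SAM2. Ep300, an acetyltransferase coactivator, rose by 0.44 and 0.71, and Dab2, an endocytic adaptor, rose by 0.26 and 0.21. Usp4, a deubiquitinase of TGFBR1, fell by 0.15 and 0.28, with the SAM1 call lost under the library total (-0.011, adjusted p = 0.740 with limma). Hgs, an endosomal protein, fell by 0.071 in SAM1 and 0.21 in SAM2, and its SAM1 value turned to 0.071 under the library total (adjusted p = 0.0315 with limma) and to 0.043 under quantile normalization (adjusted p = 0.167).

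All 35 target genes of TGF-beta were in the table, and 7 rose and 20 fell in SAM1 while 8 rose and 21 fell in SAM2. Of all genes, 37.3% rose and 36.9% fell in SAM1, where 57.1% of the targets fell, and 35.2% rose and 35.3% fell in SAM2, where 22.9% of the targets rose. Under the library total, 13 targets rose and 18 fell in SAM1 and 13 rose and 19 fell in SAM2. Of all 15184 genes, 7232 rose and 4101 fell in SAM1 under that scaling, and 6555 rose and 4131 fell in SAM2. On the main scaling the median log2 fold change of the targets was -0.25 in SAM1 and -0.23 in SAM2, against 0.0093 and -0.0015 over all genes. Timp3, a metalloproteinase inhibitor, fell by 1.20 and 1.11. Cnn1, calponin of smooth muscle, went the other way, from a mean of 425 in Empty to 5823 in SAM1 and 4417 in SAM2 (3.78 and 3.38 on the log2 scale). Tsc22d1, a leucine zipper protein, rose by 0.70 and 0.73. The lists share 3 genes between negative regulators and targets and 1 between latency and targets, so their counts are not independent.

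**Figure D4:**
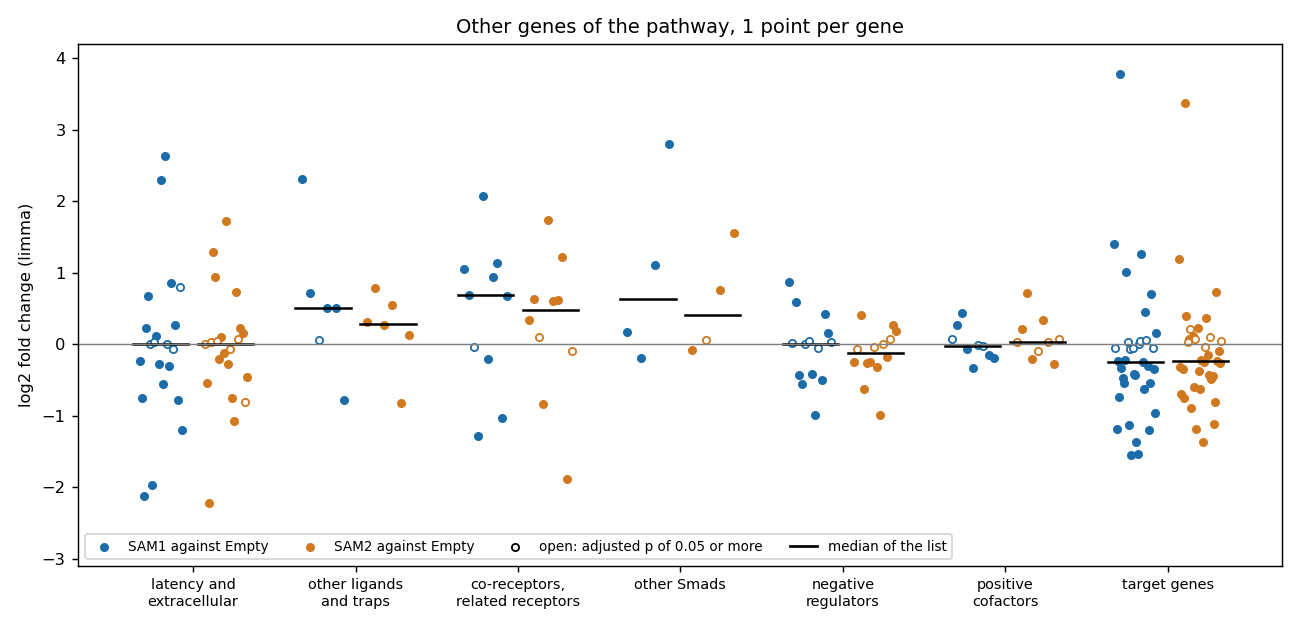
Log2 fold change against Empty (y axis) of every listed gene of 7 pathway lists in SAM1 and SAM2, 1 point per gene, filled where the adjusted p was below 0.05 and open elsewhere, with the median of each list as a bar. The target genes have medians of -0.25 and -0.23, and Cnn1 stands highest at 3.78 and 3.38.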

How the data were processed

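PolyA+ RNA of MEFs was sequenced in 9 libraries. The labels gave each library's group and replicate number. According to the study's methods, libraries were made with a directional kit, reads were checked with FastQC 0.11.0, aligned with TopHat2 and Bowtie2 to GRCm39 and counted with HTSeq, whose strand setting is not given in the sources used here. The authors deposited a signal, that is, counts divided by the DESeq2 size factor of each library, for genes above 10 in at least 30% of libraries. These values are not raw counts. All 15184 genes passed that filter when it was tested. Genes below it were not analysed here.

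limma 3.58.1 (R 4.3.3) was fitted with a mean-variance trend to log2(value + 1), as 6 against 3 libraries and as 3 groups, with Benjamini-Hochberg adjustment. A fold change on this scale understates the change of low genes. Values divided by what 1 read is worth were whole in 100% of cases in all libraries, and edgeR 4.0.16 and DESeq2 1.42.0 were run on these recovered reads as alternatives. Pairs of same-group libraries differed beyond sampling noise (chi-square per gene of 1.46 to 13.8), and each was used as a replicate. The scripts were tested on simulated data. Other alternatives were the pseudocount, stricter filters, quantile normalization, no trend, a replicate block, the mean of the SAM groups and each library left out. Scaling to the library total was added after seeing the data.

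The members and lists were chosen with earlier results of these data known. Named genes were the 10 members, Hnrnpk, the 4 genes of each list with the smallest adjusted p in Hnrnpk_SAM against Empty, and the 5 genes most like the member whose group means differed most. Marker genes were named after their values were seen, and other genes outside this rule are marked. Some items that meet the rule are not reported here. Positions are from GRCm39 with GENCODE vM39, where 14791 gene names had 1 entry, 68 had several and 325 had none.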

Additional observations from a re-analysis of the deposited data

Results flagged for a closer look

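The change against Empty differed between SAM2 and SAM1, by the test of the difference itself (limma, adjusted over all 15184 genes), for 8 of the 10 genes. Of these, 4 were higher and 4 lower in SAM2, where 31.1% of all genes were called higher and 29.2% lower. Each difference is given as SAM2 minus SAM1 on the log2 scale. It was 0.86 for Tgfbr2, 0.53 for Tgfbr3 and 0.34 for Tgfb2, which had fallen less in SAM2. It was -0.29 for Tgfbr1, which had risen less in SAM2. It was -1.05 for Smad7, -0.37 for Smad2 and -0.28 for Tgfb3, which were higher than Empty in SAM1 and lower in SAM2, and 0.29 for Smad3. All 3 libraries of SAM2 lay on one side of all 3 of SAM1 for each of these 8 genes. The same held for Smad4, which was not called, so 9 of the 10 genes did not overlap. The share of all genes without overlap was not counted, so this separation does not set the 8 genes apart. Whether SAM1 and SAM2 differ by guide or by culture cannot be told apart with these labels.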

How the results depend on the processing

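Each member was tested again under up to 20 alternatives per comparison, and 751 of 770 values kept their direction and their side of the threshold. Several alternatives leave the fold change the same by design, so only the call could change. These are the stricter filters, no trend, the replicate block, the mean of the SAM groups and the loss of a library outside the comparison. The total is therefore not a count of independent checks. Calls ended for Tgfb1 in the pooled group without Empty replicate 2 (adjusted p = 0.0508), for Smad4 there under quantile normalization (adjusted p = 0.0877) and the library total (adjusted p = 0.523), and for the Smad4 and Tgfb3 results given above (limma). Smad3 (adjusted p = 0.0384) and Smad7 (adjusted p = 7.25e-06) were called in the pooled group when the mean of SAM1 and SAM2 was tested in the fit with 3 groups, which takes the difference between them out of the spread. Without SAM1 replicate 1, Smad4 was called between SAM2 and SAM1 (0.086, adjusted p = 0.0430). Among values not called before or after, directions turned in the pooled group for Tgfb3 (-0.0010 without Empty replicate 2 and -0.0091 to -0.0070 without each SAM1 library) and Smad2 (0.0069 under quantile normalization and 0.062 under the library total), and in SAM1 for Smad3 (0.029 and 0.081). Directions of called values turned for Hnrnpk in SAM1 (0.094 under quantile normalization and 0.035 under the library total), for Hgs in SAM1 (0.043 and 0.071) and for Smad1 in SAM2 under the library total (0.027). The cause was not tested. With the replicate block, 6 members were called in the pooled group, 9 in SAM1, 10 in SAM2 and 8 between them, as without it. Deviations of same-numbered libraries correlated with a mean r of 0.0531 (0.00237 to 0.117, 9 pairs). For differently numbered libraries the mean r was -0.0265 (-0.122 to 0.0460, 18 pairs). Over all genes, the block gave 5849 higher and 5782 lower in SAM1, against 5667 and 5608 without it. In the pooled group it gave 3658 and 3685, against 4076 and 4103. Correlations this weak cannot decide whether same-numbered libraries were paired, and the main fits treat them as unpaired. The number of libraries, 3 per group, limits the precision.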

Other observations

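Of the 95 distinct listed genes in the table, 9 were called against Empty in opposite directions in SAM1 and SAM2. Another 23 were higher in both, 30 were lower in both and 33 were not called in at least one. The shares of all genes with opposite calls, or with the same call in both, were not counted. The counts of 9, 23 and 30 are therefore descriptions only. Values of the 9 are given side by side, since both comparisons share the Empty libraries. The 9 were named after their values were seen. Under the library total, Bambi in SAM2 (adjusted p = 0.0544), Cd109 in SAM1 (adjusted p = 0.181) and Smad1 in SAM2 (adjusted p = 0.394) were not called, and under quantile normalization neither were Inhbb in SAM2 (adjusted p = 0.158), Smad1 in SAM2 (adjusted p = 0.0983) and Col1a1 in SAM1, which turned to 0.074 (adjusted p = 0.424, limma). Il11, an interleukin induced by TGF-beta in fibroblasts, had log2 fold changes of 1.01 in SAM1 and -0.89 in SAM2, Bambi, a decoy receptor, 0.87 and -0.25, and Inhba, the activin A subunit, 0.51 and -0.82. Smad1 belongs to the same group, with 0.17 and -0.077. The opposite order was found for Ltbp4, a latent TGF-beta binding protein (-0.78 and 0.16), Inhbb, the activin B subunit (-0.78 and 0.13), Col3a1 (-0.54 and 0.065) and Col1a1 (-0.34 and 0.39), which encode fibrillar collagens, and Cd109, a co-receptor (-0.21 and 0.60).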
